A study of Homo sapiens with 7 samples.

Results

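The genes described here are 51 genes of DNA replication and mitosis, read in 7 Hodgkin lymphoma (HL) cell lines. They were taken as a list of gene names, and a gene was read from every probe set that the platform annotation gives to that gene alone, which made 103 probe sets for 51 of the 19775 genes measured. The list was divided by role into 11 genes of replication licensing, 17 of S phase, 18 of mitosis and 5 transcription regulators of the cell cycle. The lines were L-428, KM-H2, HDLM-2, L-540, L-1236, U-HO1 and SUP-HD1, each a long-term culture grown from the tumour of a single patient, and each stands here as 1 Affymetrix HG U133 Plus 2.0 array of total RNA. The labels give no treatment and no further difference between the cultures. With 1 array per line there is no replicate error and no test, so every difference below compares single arrays.

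A cell copies its DNA once per cycle because origins are licensed before S phase and fired within it. The origin recognition complex, CDC6 and CDT1 load the ring of MCM2 to MCM7 onto DNA, geminin blocks CDT1 once copying has begun, and CDC45 with the GINS proteins turns the ring into a moving helicase. E2F factors switch on many licensing and S phase genes, whereas FOXM1 and MYBL2 work with later promoters that carry CHR and CCAAT elements and serve mitosis. HL lines are dividing tumour cells, and these genes are widely read as a measure of proliferation.

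Levels are deposited log2 values of one probe set per gene, the one with the highest mean over the lines, and 1 unit is a doubling. A level cannot be compared between genes, because probes differ in brightness, so all comparisons are between lines for the same gene. A difference is the level of a line minus the mean of the 7 lines, and the range is the highest line minus the lowest. The spread among a gene's own probe sets (SD), after the mean of each probe set over the lines was taken away, stands in for technical error and was 0.56 for the members (25 genes, 60 probe sets) and 0.58 over all genes. Probe sets for olfactory receptors, genes silent in lymphoid cells, gave the background of each array as their 95th percentile. Differences can come from a smaller share of cells in cycle or from less RNA per cell, and these cannot be told apart in RNA from a whole culture.

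Both L-1236 and U-HO1 stood apart as arrays. The 90th percentile of levels was 7.43 in L-1236 and 8.09 to 8.20 elsewhere, its background was 5.59 against 4.49 to 4.86, and 8609 genes lay above it against 10554 to 11636. The 9 genes that every cell uses had a median difference of -0.40 in L-1236 and of -0.02 to 0.17 in the other lines. Because the low reading of L-1236 depended on level, values are also given level-corrected, after subtraction from each array of a smooth curve of its differences against level over all genes. U-HO1 read ACTB 2.11 higher at its 3′ end than at its 5′ end, against 0.06 to 0.54 in the other lines. HL markers were present except for TNFRSF8 (CD30) in SUP-HD1, at 4.36 below the background of 4.49, and TRAF1 in L-1236, at 4.97 below 5.59.

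The promoters show the division of the list in their letters. RefSeq promoter entries (build GRCh38.p14) matched 42 of the 51 members, and the 250 bases before the start were searched on both strands. The E2F letters were TTTCCCGC, TTTCGCGC, TTTGCCGC and TTTGGCGC, the CHR letters TTTGAA and TTCGAA, and the CCAAT box was CCAAT itself. None of these motifs contains another, a match on either strand counted, and a promoter with several matches counted once. E2F letters were found at 4 of 9 licensing genes (44.4%), 6 of 15 S phase genes (40%), 2 of 3 regulators and 0 of 15 mitosis genes, against 2.79% of all 27305 promoters. CHR letters were found at 8 of 15 mitosis genes (53.3%), 1 of 9 licensing genes, 1 of 15 S phase genes and 0 of 3 regulators, against 14.6% of all promoters. CCAAT was common in each large group, at 6 of 9, 10 of 15 and 11 of 15, and in 33.0% of all promoters. CHR and CCAAT stood together at 7 of 15 mitosis genes and in 5.24% of all promoters. A match describes letters and is not evidence of binding, and a missing match says only that these letters are absent from this window.

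The stretches below are shown because they hold the letters that divide the groups, from the 2 members of widest range in each group among those with a promoter entry that holds the letters of the group, which for MCM3 and E2F1 includes narrow ranges. Each runs 5′ to 3′ on the strand of the gene, and capitals mark E2F letters for CDT1, MCM3, RFC3, GINS2, E2F2 and E2F1, and CHR and CCAAT letters for PLK1 and CDC20. Their positions are chr16:88803729-88803786 (+) for CDT1, chr6:52284884-52284941 (-) for MCM3, chr13:33818069-33818126 (+) for RFC3, chr16:85688955-85689010 (-) for GINS2, chr16:23678791-23678888 (+) for PLK1, chr1:43358778-43358955 (+) for CDC20, chr1:23531243-23531300 (-) for E2F2 and chr20:33686386-33686443 (-) for E2F1. All lie upstream of the start of the gene.
CDT1: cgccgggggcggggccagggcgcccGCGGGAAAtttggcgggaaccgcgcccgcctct
MCM3: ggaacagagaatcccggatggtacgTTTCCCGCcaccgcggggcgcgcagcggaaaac
RFC3: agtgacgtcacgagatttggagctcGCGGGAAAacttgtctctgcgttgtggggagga
GINS2: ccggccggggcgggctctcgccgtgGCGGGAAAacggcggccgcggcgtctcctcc
PLK1: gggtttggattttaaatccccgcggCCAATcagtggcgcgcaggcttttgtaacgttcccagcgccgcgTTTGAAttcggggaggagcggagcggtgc
CDC20: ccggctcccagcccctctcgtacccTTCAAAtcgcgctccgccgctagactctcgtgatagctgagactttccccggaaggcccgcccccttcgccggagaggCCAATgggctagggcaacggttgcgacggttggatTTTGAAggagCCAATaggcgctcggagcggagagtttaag
E2F2: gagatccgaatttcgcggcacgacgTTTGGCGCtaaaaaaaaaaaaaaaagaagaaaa
E2F1: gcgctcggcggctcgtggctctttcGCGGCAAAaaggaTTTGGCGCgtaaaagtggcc

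Nearly all members were expressed in all lines. A level above background was read in every line for 48 of 51 members, the exceptions being CCNE2 and E2F8 in L-1236 and CDC20 in KM-H2, L-428 and SUP-HD1. The same was read for 6844 of the 14495 genes that rose over background in 1 line or more. The lines differed by at least 2 (range) for 25 of 51 members, where 50.1% of 14495 genes did so (those that rose over background in 1 line or more). The median range was 1.92 for the members and 2.00 for those genes, so the members varied about as much as other genes. Without L-1236 a range of at least 2 was read for 17 members, against 36.9% of genes. By group the count was 3 of 11 licensing, 10 of 17 S phase, 10 of 18 mitosis and 2 of 5 regulator genes, and 3, 6, 7 and 1 without L-1236.

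**Figure D1:**
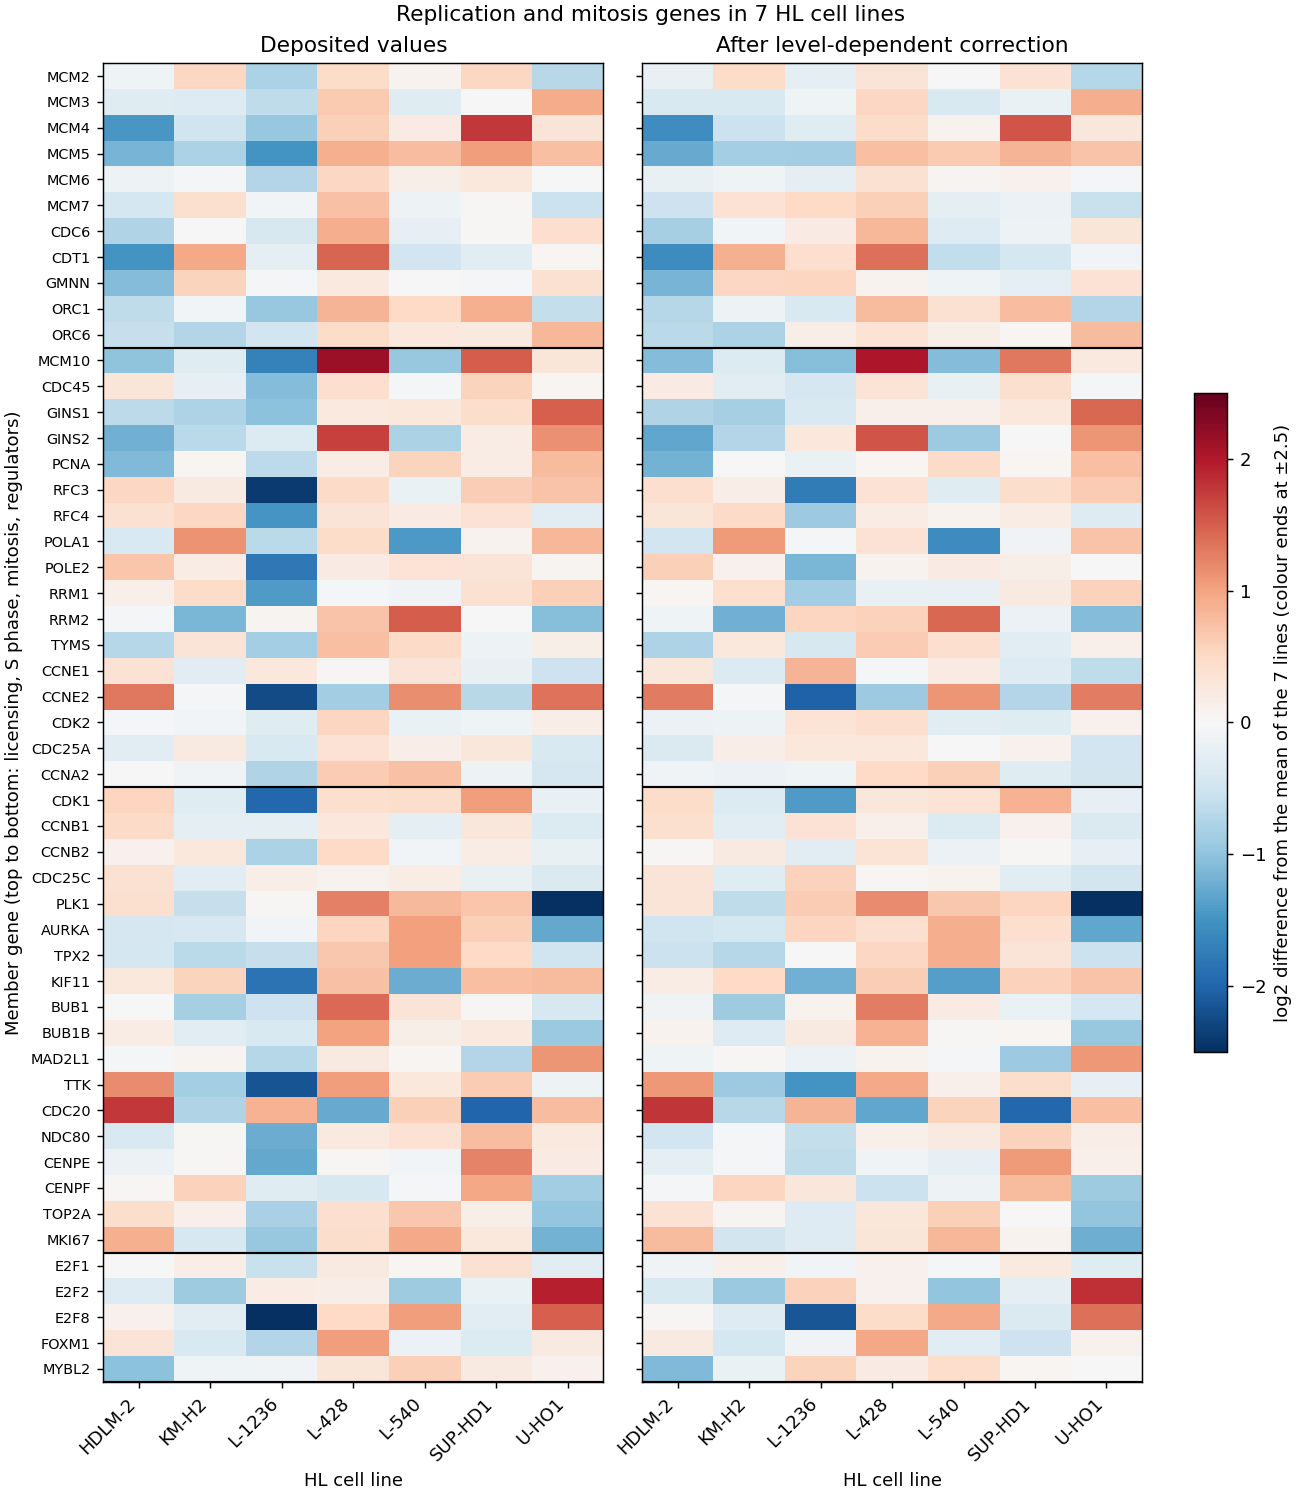
Difference of each member gene from the mean of the 7 lines (log2, colour), with genes in rows by group and lines in columns. L-1236 is mostly below the mean and L-428 mostly above it, and HDLM-2 is below the mean for all 11 licensing genes but not for the mitosis genes.

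Licensing genes were lowest in HDLM-2 and L-1236 and highest in L-428. All 11 lay below the mean of the lines in HDLM-2, with a median difference of -0.63, and all 11 lay above it in L-428, with a median of 0.65. In L-1236 all 11 lay below the mean, with a median of -0.64, but the median of all genes in that array was -0.29 and the median licensing difference became -0.10 when level-corrected. The same correction left HDLM-2 at -0.71 and L-428 at 0.51. Medians in the other lines were -0.05 in KM-H2, 0.09 in L-540, 0.25 in SUP-HD1 and 0.32 in U-HO1.

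MCM4, a subunit of the helicase ring, had the widest range in this group. Its level was 7.12 in HDLM-2, 8.09 in KM-H2, 7.64 in L-1236, 9.17 in L-428, 8.79 in L-540, 10.34 in SUP-HD1 and 8.90 in U-HO1. HDLM-2 was lowest and SUP-HD1 highest, 9.32-fold apart, and the next lines were 0.52 above and 1.17 below them. These ends held at 3 of the 5 probe sets, while at the one of largest variance L-1236 was lowest, below its background, and U-HO1 highest at 7.58. MCM5, another subunit of the ring, was at 7.59 in HDLM-2, 7.96 in KM-H2, 7.27 in L-1236, 9.65 in L-428, 9.53 in L-540, 9.80 in SUP-HD1 and 9.52 in U-HO1. At this probe set the lines fell into a low set of HDLM-2, KM-H2 and L-1236 and a high set of the other lines, with 1.56 between them. The division did not hold at the second probe set of MCM5, where KM-H2 was at 7.36 and U-HO1 at 7.38. MCM2, a subunit phosphorylated when origins fire, was at 9.94 in HDLM-2, 10.56 in KM-H2, 9.27 in L-1236, 10.52 in L-428, 10.14 in L-540, 10.57 in SUP-HD1 and 9.36 in U-HO1. L-1236 and U-HO1 were lowest and within 0.09 of each other.

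CDT1, the loading factor of the MCM ring, was at 6.02 in HDLM-2, 8.47 in KM-H2, 7.30 in L-1236, 8.98 in L-428, 7.03 in L-540, 7.25 in SUP-HD1 and 7.56 in U-HO1. HDLM-2 was lowest and L-428 highest, 7.78-fold apart. CDC6, the other loading factor, was at 6.42 in HDLM-2, 7.16 in KM-H2, 6.77 in L-1236, 8.07 in L-428, 6.97 in L-540, 7.19 in SUP-HD1 and 7.58 in U-HO1. It had the same lowest and highest lines as CDT1 at the probe sets used. At the second probe set of each gene L-428 was again highest, but L-1236 was lowest and HDLM-2 next. The levels there were 4.08 and 5.43 for CDC6 and 5.59 and 5.64 for CDT1, with L-1236 not above its background. ORC1, the largest subunit of the origin recognition complex, was at 6.26 in HDLM-2, 6.82 in KM-H2, 5.95 in L-1236, 7.75 in L-428, 7.40 in L-540, 7.79 in SUP-HD1 and 6.29 in U-HO1. L-1236, HDLM-2 and U-HO1 lay within 0.34 of each other at the low end, inside the spread among probe sets.

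GMNN (geminin), which blocks reloading, was lowest in HDLM-2 at 8.44, with a median of 9.52 and a highest level of 10.09 in KM-H2. HDLM-2 was thus low for the loading factor and for its inhibitor alike. MCM3 ran from 9.46 in L-1236 through 9.80 to 11.02 in U-HO1. MCM6 ran from 9.93 in L-1236 through 10.65 to 11.18 in L-428, the narrowest range of the group. MCM7 ran from 9.12 in U-HO1 through 9.59 to 10.39 in L-428. These are the remaining subunits of the ring, and unlike MCM4 they were not lowest in HDLM-2. ORC6, the smallest subunit of the origin complex, ran from 7.90 in KM-H2 through 8.88 to 9.46 in U-HO1.

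S phase genes were low in L-1236 and high in L-428, with the other lines close together. The median difference was -0.86 in L-1236 and 0.43 in L-428, and between -0.06 and 0.20 in the other 5 lines. L-1236 was the lowest line for 12 of the 17 genes and the highest for 0. The share of all genes with L-1236 lowest was not computed. Its curve over all genes had a median of -0.61 at the levels of these 17, so the array read low there whatever the gene. Level-corrected, the S phase median of L-1236 was -0.37 and remained the lowest of the lines.

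MCM10, which helps to activate the helicase, had the widest range of the group. It was at 7.56 in HDLM-2, 8.27 in KM-H2, 6.87 in L-1236, 10.71 in L-428, 7.61 in L-540, 10.07 in SUP-HD1 and 8.86 in U-HO1. L-428 and SUP-HD1 were at least 1.21 above every other line, and L-428 was 14.3-fold above L-1236. All 3 probe sets of MCM10 had L-428 as the highest and L-1236 as the lowest line. GINS2, a subunit of the GINS complex, was at 7.79 in HDLM-2, 8.32 in KM-H2, 8.65 in L-1236, 10.70 in L-428, 8.21 in L-540, 9.19 in SUP-HD1 and 10.14 in U-HO1. L-428 and U-HO1 were highest, but a second probe set put U-HO1 below all lines except L-1236, at 5.84.

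RFC3, a subunit of the clamp loader, was at 8.67 in HDLM-2, 8.39 in KM-H2, 5.76 in L-1236, 8.64 in L-428, 7.99 in L-540, 8.78 in SUP-HD1 and 8.86 in U-HO1. The other 6 lines lay within 0.87 of each other and L-1236 was 2.23 below the lowest of them, only 0.17 above its background. At a second probe set of RFC3 L-1236 was again lowest, at 6.62, but U-HO1 was next at 7.19. PCNA, the sliding clamp that RFC loads, was at 9.80 in HDLM-2, 10.95 in KM-H2, 10.26 in L-1236, 11.10 in L-428, 11.46 in L-540, 11.10 in SUP-HD1 and 11.69 in U-HO1. Here HDLM-2 was lowest, by 0.46. RRM2, the S phase subunit of ribonucleotide reductase, which makes deoxynucleotides, was at 11.15 in HDLM-2, 10.06 in KM-H2, 11.27 in L-1236, 11.91 in L-428, 12.71 in L-540, 11.19 in SUP-HD1 and 10.15 in U-HO1. L-540 was highest, and KM-H2 and U-HO1 lowest, although a second probe set put U-HO1 second only to L-540.

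CCNE2, a cyclin of S phase entry, was at 7.22 in HDLM-2, 5.85 in KM-H2, 3.66 in L-1236, 5.03 in L-428, 7.07 in L-540, 5.21 in SUP-HD1 and 7.25 in U-HO1. HDLM-2, L-540 and U-HO1 were at least 1.22 above the others, and L-1236 was below its background, so that its level is only a bound. At a second probe set U-HO1 was at 4.37, under its background, and only HDLM-2 and L-540 were high. CCNE1, the related cyclin, ran over 0.89 only, from 6.58 in U-HO1 through 7.13 to 7.47 in HDLM-2. CDK2, the kinase both cyclins bind, ran from 7.97 in L-1236 through 8.21 to 8.81 in L-428. CDC25A, the phosphatase that activates CDK2, had the narrowest range of the group, from 7.27 in L-1236 through 7.81 to 8.01 in L-428. At their probe sets of largest variance the ranges were 3.59 for CCNE2, 3.07 for CCNE1 and 2.34 for CDK2. That probe set of CCNE1 was above background only in L-1236, at 6.15, so its range rests on levels below background in the other lines. The narrow range of CDK2 held only at the probe set used here. CCNA2, the cyclin of S phase and of the approach to mitosis, ran from 7.83 in L-1236 through 8.48 to 9.30 in L-540.

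The remaining S phase genes are enzymes and parts of the replication fork. CDC45 ran from 6.64 in L-1236 through 7.76 to 8.28 in SUP-HD1, and GINS1 from 7.18 in L-1236 through 8.44 to 9.70 in U-HO1. RFC4, another clamp loader subunit, ran from 8.07 in L-1236 through 9.87 to 10.07 in KM-H2. For POLE2, a subunit of DNA polymerase epsilon, 6 lines lay between 7.95 and 8.56 and L-1236 at 6.08. POLA1, the catalytic subunit of the polymerase that starts new strands, had another order, from 6.20 in L-540 through 7.73 to 8.77 in KM-H2. RRM1, the large subunit of ribonucleotide reductase, ran from 8.47 in L-1236 through 10.02 to 10.48 in U-HO1, but at its other probe set U-HO1 was lowest at 6.86 and L-1236 next at 8.06. TYMS, which makes thymidylate, ran from 10.63 in L-1236 through 11.64 to 12.24 in L-428.

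Mitosis genes differed from licensing genes mainly in HDLM-2 and U-HO1. Their median difference was 0.22 in HDLM-2, -0.27 in KM-H2, -0.64 in L-1236, 0.43 in L-428, 0.29 in L-540, 0.40 in SUP-HD1 and -0.35 in U-HO1. The median of mitosis minus that of licensing was 0.86 in HDLM-2 and -0.67 in U-HO1, and from -0.23 to 0.20 in the other lines. At the probe sets used, U-HO1 was the lowest line for 8 of 18 mitosis genes and for 1 of 11 licensing genes. The share of all genes with U-HO1 lowest was not computed. In U-HO1 the next probe set of a member disagreed with the first by at least 1, relative to the median of the lines, for 13 of 25 genes, against 7 in L-1236, 4 in L-540 and 0 or 1 in the other lines. BUB1 shows it, with 8.43 at one probe set and 4.65 at the next in U-HO1. The part of this disagreement and of the ACTB difference in the mitosis reading of U-HO1 was not tested.

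**Figure D2:**
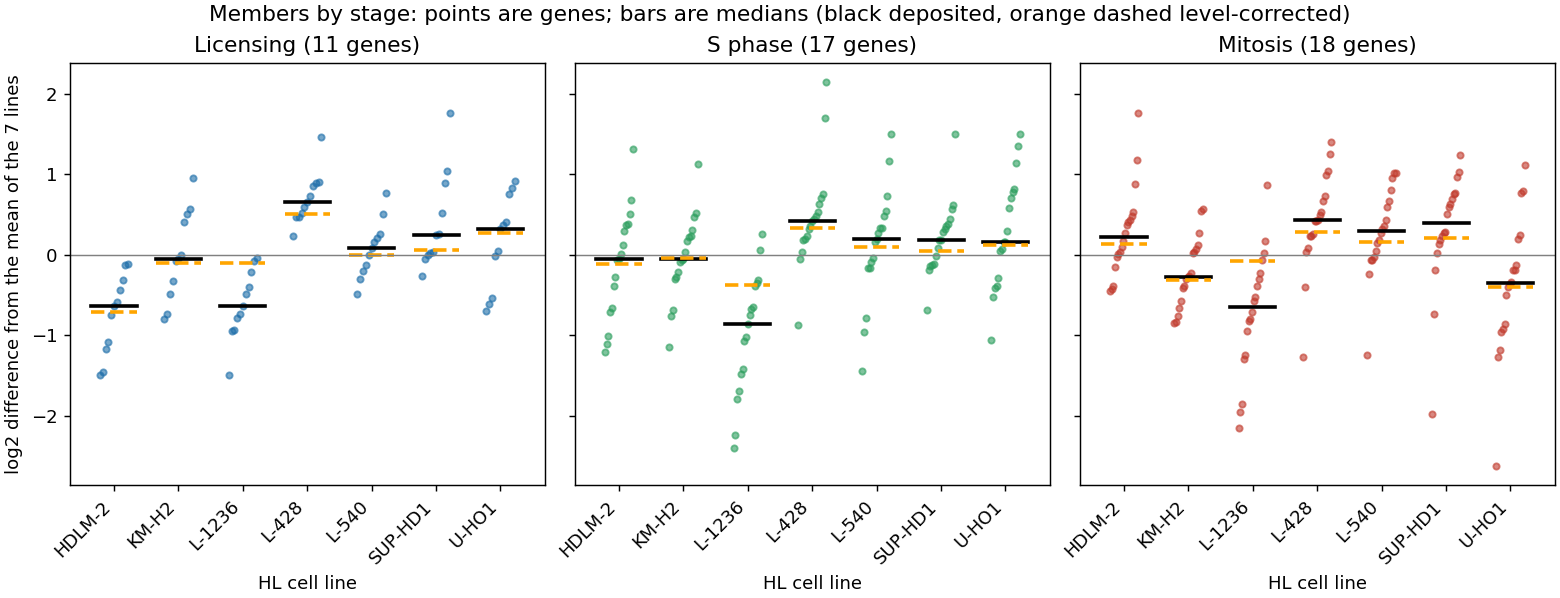
Difference from the mean of the 7 lines (log2) for each member gene (points) and the group median (bar), by line, in licensing, S phase and mitosis genes (black bar deposited values, orange bar level-corrected values). HDLM-2 has a licensing median of -0.63 beside a mitosis median of 0.22, U-HO1 has the opposite order with 0.32 and -0.35, and L-428 is above 0 in each.

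Kinases and their cyclins were described first. CDK1, the kinase that drives entry into mitosis, was at 10.47 in HDLM-2, 9.64 in KM-H2, 7.98 in L-1236, 10.36 in L-428, 10.37 in L-540, 10.97 in SUP-HD1 and 9.75 in U-HO1. L-1236 was 1.66 below the next line, and it was the lowest line at all 4 probe sets of CDK1. Of these, 1 lay above background only in SUP-HD1, at 4.51 against 4.49. CCNB1, its cyclin, was at 9.86 in HDLM-2, 9.15 in KM-H2, 9.16 in L-1236, 9.64 in L-428, 9.14 in L-540, 9.67 in SUP-HD1 and 9.04 in U-HO1. The 7 lines lay within 0.82, so the cyclin did not share the low reading of its kinase in L-1236 at this probe set, whereas a second one put L-1236 lowest at 5.52, just under its background. CCNB2 ran from 9.39 in L-1236 through 10.29 to 10.68 in L-428, and CDC25C, the phosphatase that activates CDK1, from 5.96 in U-HO1 through 6.40 to 6.69 in HDLM-2.

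PLK1, a kinase of spindle and centrosome control, was at 7.73 in HDLM-2, 6.75 in KM-H2, 7.34 in L-1236, 8.58 in L-428, 8.13 in L-540, 8.01 in SUP-HD1 and 4.70 in U-HO1. U-HO1 was 2.05 below the next line and 0.11 above its background, and L-428 was 14.7-fold above it, all on a single probe set. AURKA, a kinase of the spindle poles, ran from 7.82 in U-HO1 through 9.03 to 10.11 in L-540. At its next probe set L-540 was again highest, but L-1236 was lowest at 5.95, with U-HO1 next at 7.62. TPX2, which activates AURKA on the spindle, ran from 8.71 in KM-H2 through 8.93 to 10.39 in L-540. Both partners were highest in L-540.

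The spindle checkpoint holds the cell until each chromosome is attached. TTK (MPS1), its upstream kinase, was at 9.18 in HDLM-2, 7.16 in KM-H2, 5.85 in L-1236, 9.05 in L-428, 8.27 in L-540, 8.63 in SUP-HD1 and 7.87 in U-HO1. L-1236 was lowest, 1.31 below KM-H2. CDC20, the activator of the ubiquitin ligase that the checkpoint restrains, was at 7.19 in HDLM-2, 4.67 in KM-H2, 6.29 in L-1236, 4.16 in L-428, 6.02 in L-540, 3.45 in SUP-HD1 and 6.20 in U-HO1. KM-H2, L-428 and SUP-HD1 were below background for CDC20, at its single probe set, while the other mitosis genes were above background in these lines. BUB1 ran from 8.0 in KM-H2 through 8.84 to 10.24 in L-428, BUB1B from 8.07 in U-HO1 through 9.14 to 9.99 in L-428, and MAD2L1 from 9.07 in SUP-HD1 through 9.85 to 10.91 in U-HO1. At these probe sets U-HO1 was lowest for BUB1B and highest for MAD2L1, but at the next probe set of MAD2L1 it was at 9.91, below L-428 and HDLM-2.

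KIF11, the motor that pushes the spindle poles apart, was at 8.32 in HDLM-2, 8.60 in KM-H2, 6.20 in L-1236, 8.78 in L-428, 6.80 in L-540, 8.81 in SUP-HD1 and 8.84 in U-HO1. L-1236 and L-540 were both at least 1.52 below the other lines. The kinetochore genes NDC80, from 6.67 in L-1236 through 8.15 to 8.68 in SUP-HD1, and CENPE, from 6.93 in L-1236 through 8.25 to 9.46 in SUP-HD1, shared their lowest and highest lines. CENPF, a large kinetochore protein, ran from 8.61 in U-HO1 through 9.45 to 10.44 in SUP-HD1. At a second probe set of CENPF U-HO1 was instead the highest line at 7.54, with SUP-HD1 next at 6.99.

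TOP2A, the topoisomerase that untangles sister chromatids, was at 11.21 in HDLM-2, 10.90 in KM-H2, 9.96 in L-1236, 11.20 in L-428, 11.45 in L-540, 10.92 in SUP-HD1 and 9.82 in U-HO1. MKI67, which encodes the proliferation antigen Ki-67, was at 9.64 in HDLM-2, 8.35 in KM-H2, 7.82 in L-1236, 9.19 in L-428, 9.71 in L-540, 9.03 in SUP-HD1 and 7.58 in U-HO1. Both were highest in L-540 and lowest in U-HO1 with L-1236 next. These places did not hold at every probe set. L-540, at 8.51, was below L-428 and HDLM-2 at a second probe set of MKI67. U-HO1 was the second highest line for MKI67 at a further one, with 7.93, and the third highest for TOP2A, with 10.04.

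The regulators followed no single group. E2F1 was at 10.99 in HDLM-2, 11.18 in KM-H2, 10.45 in L-1236, 11.24 in L-428, 11.06 in L-540, 11.39 in SUP-HD1 and 10.73 in U-HO1. Its range of 0.94 was the narrowest of the 5. E2F2, another activator of S phase genes, was at 6.0 in HDLM-2, 5.43 in KM-H2, 6.51 in L-1236, 6.49 in L-428, 5.43 in L-540, 6.16 in SUP-HD1 and 8.26 in U-HO1. U-HO1 was 1.75 above the next line. E2F8, a repressor that E2F factors induce, was at 6.69 in HDLM-2, 6.31 in KM-H2, 3.97 in L-1236, 7.09 in L-428, 7.64 in L-540, 6.32 in SUP-HD1 and 8.08 in U-HO1. U-HO1 was highest for both, and L-1236 was below its background for E2F8.

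FOXM1, which drives mitosis genes, was at 7.86 in HDLM-2, 7.17 in KM-H2, 6.82 in L-1236, 8.60 in L-428, 7.41 in L-540, 7.20 in SUP-HD1 and 7.77 in U-HO1. L-428 was highest, by 0.74. MYBL2, which acts with the same late promoters, was at 6.64 in HDLM-2, 7.56 in KM-H2, 7.57 in L-1236, 7.96 in L-428, 8.25 in L-540, 7.89 in SUP-HD1 and 7.77 in U-HO1. HDLM-2 was 0.92 below the next line, where its mitosis median was above the mean of the lines.

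**Figure D3:**
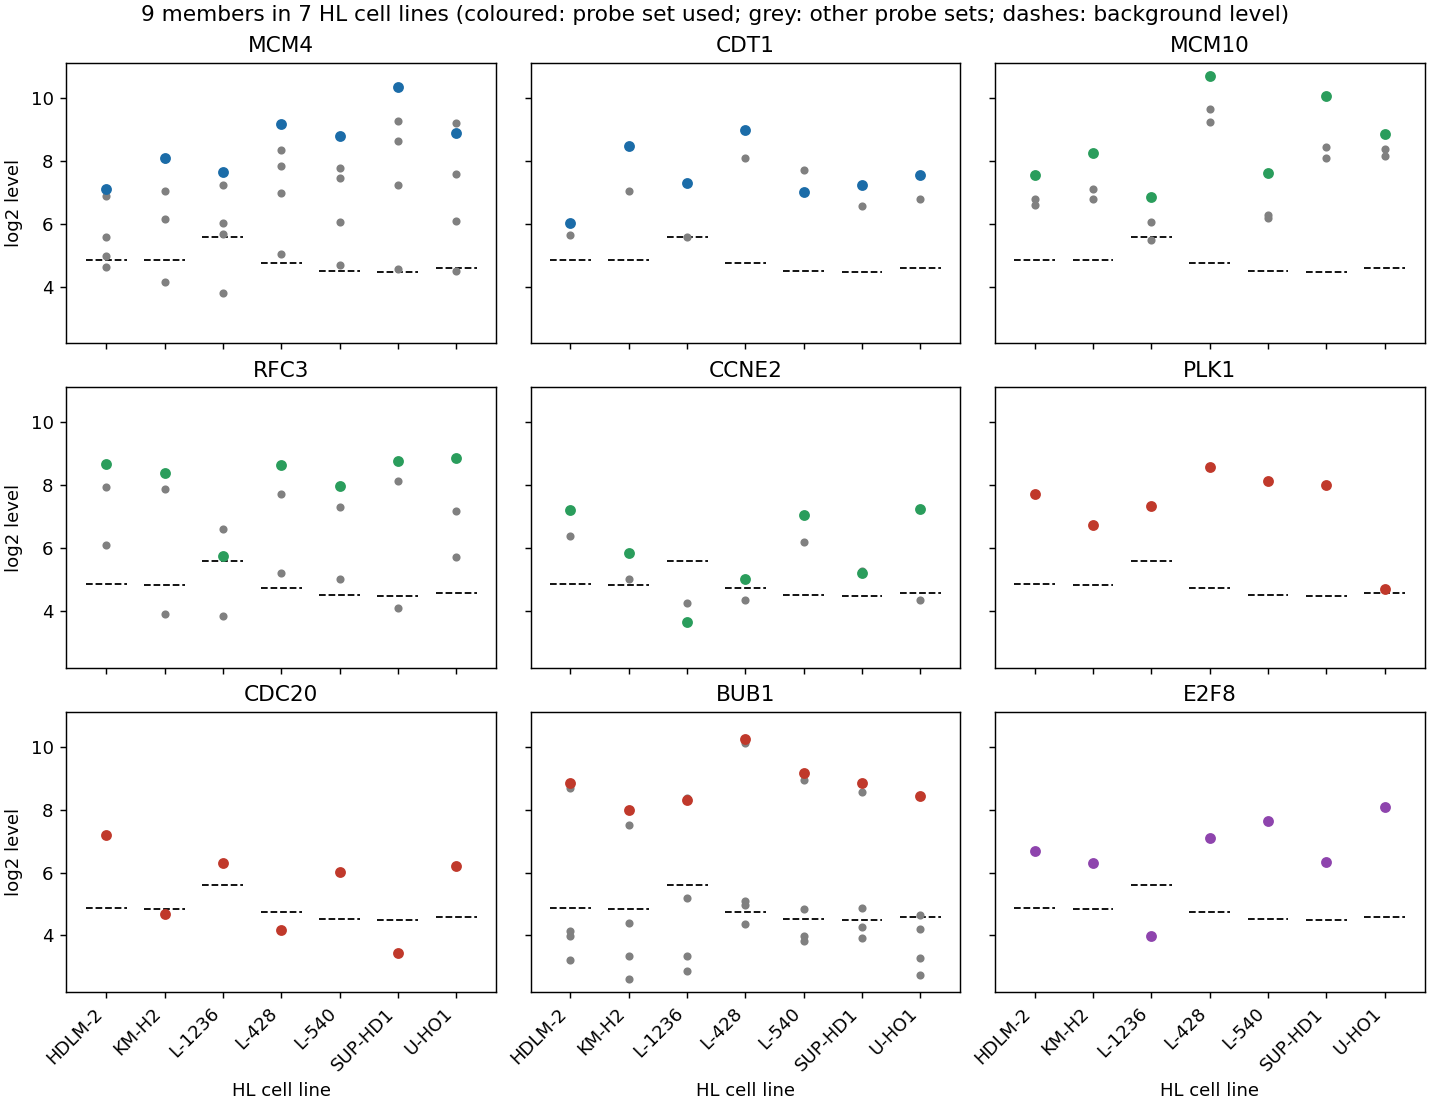
Log2 level of 9 members by line, with the probe set used in colour, other probe sets of the gene in grey and the background of each array as a dashed line. At the probe sets used, CDT1 and MCM4 are lowest in HDLM-2, PLK1 is lowest in U-HO1, and CCNE2 and E2F8 are lowest in L-1236.

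Counts of members at least 1 from the mean of the lines are given with the share of all genes past the same limit in the same direction. In HDLM-2, 3 of 51 members were at least 1 above (10.4% of all genes) and 8 below (6.49%), the latter being MCM4 at -1.46, MCM5 at -1.17, CDT1 at -1.50, GMNN at -1.08, MCM10 at -1.0, GINS2 at -1.21, PCNA at -1.11 and MYBL2 at -1.02. None of the 8 was a mitosis gene. In KM-H2, 1 was above (10.7%) and 1 below (8.27%), POLA1 and RRM2. In L-428, 7 were above (7.66%) and 1 below (6.82%). In L-540, 5 were above (8.29%) and 2 below (8.22%). In SUP-HD1, 5 were above (9.21%) and 1 below (7.92%). In U-HO1, 6 were above (12.3%) and 4 below (9.31%), among them PLK1 at -2.62, AURKA at -1.27 and MKI67 at -1.18. The 15.7% of members below in HDLM-2 and the 13.7% above in L-428 exceeded the shares of all genes.

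L-1236 had 0 of 51 members at least 1 above the mean (9.0% of all genes) and 15, or 29.4%, below (21.0%). After subtraction of the level-dependent curve of each array, 0 were above (10.8%) and 8 below (14.3%). At the probe sets used, the 8 were RFC3 at -1.74, MCM10 at -1.06, POLE2 at -1.14, CCNE2 at -2.02, CDK1 at -1.41, KIF11 at -1.20, TTK at -1.50 and E2F8 at -2.13, of which CCNE2 and E2F8 are bounds. These are 4 S phase genes, 3 mitosis genes and a regulator. No licensing member was among them. Before correction, 1 of 11 licensing members was at least 1 below the mean, and so were 8 of the 9 further genes listed with licensing below. The corrected median of those 9 genes was -0.63. The corrected medians of L-1236 were -0.10 for licensing, -0.37 for S phase, -0.07 for mitosis and -0.08 for the regulators. MCM5 went from -1.49 to -0.87 with the correction.

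**Figure D4:**
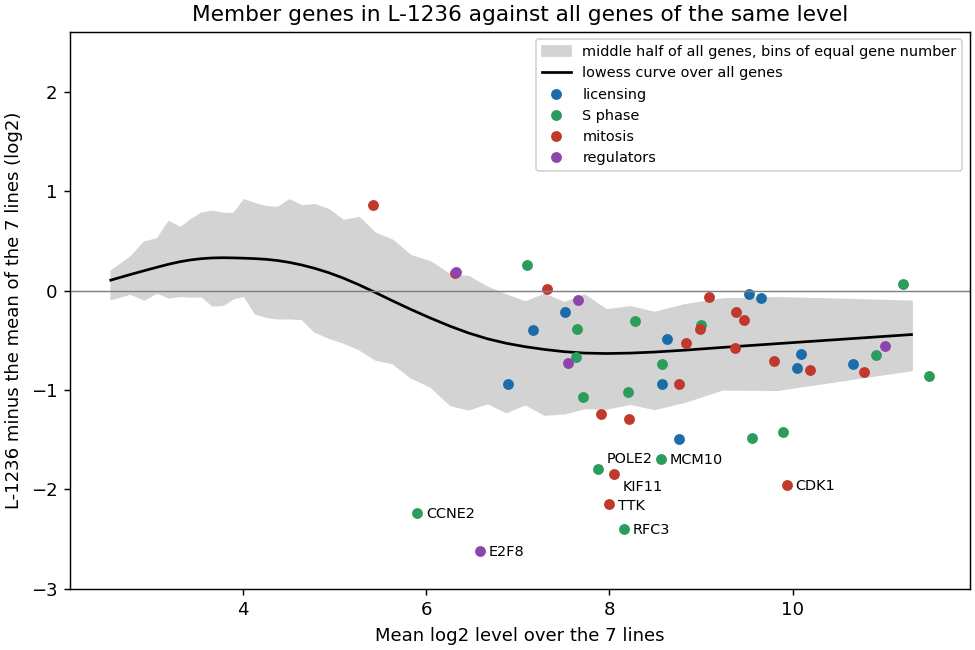
Members in L-1236 minus the mean of the 7 lines (log2) against their mean level, with the lowess curve over all genes (black) and the middle 50% of all genes at that level (grey). The 8 named members lie at least 1 below the curve, and the others lie around it.

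The group medians were set against each other over the lines as a description. Licensing and S phase medians had r = 0.82 over 7 lines, 0.88 over 6 without L-1236 and 0.66 over 7 after the level correction. Licensing and mitosis medians had r = 0.46, 0.12 and -0.02 in the same order, and S phase and mitosis medians 0.77, 0.50 and 0.27. All points share the normalization of the arrays, and the relation of mitosis to both other groups rests in large part on L-1236. Of the regulators, MYBL2 had r = 0.71 with the licensing medians and 0.16 with the mitosis medians, and FOXM1 0.55 and 0.56. Over 6 lines without L-1236 these were 0.81 and 0.15 for MYBL2 and 0.35 and 0.30 for FOXM1. E2F1 had r = 0.82 with the mitosis medians over 7 lines and 0.63 without L-1236, at the probe set used. Its second probe set had another order of the lines.

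Further replication and mitosis genes, a list of 79 of which 78 were measured, gave a second view. A range of at least 2 was read for 37 of 78 (50.1% of all genes) and a level above background in all lines for 63 (6844 of 14495 genes). In L-1236, 31 of 78 were at least 1 below the mean (21.0% of all genes) and 0 above (9.0%), with a median of -0.93. In L-428, 10 were above (7.66%) and 0 below (6.82%), with a median of 0.37. In HDLM-2, 5 were above (10.4%) and 2 below (6.49%). The 9 genes listed with licensing here were ORC2 to ORC5, MCM8, MCM9, MCMBP, DBF4 and CDC7. They include none of the MCM2 to MCM7 ring, CDC6 or CDT1. Their median was 0.29 in HDLM-2, where the 11 members stood at -0.63, and the other mitosis genes had 0.24 there. In U-HO1 these 9 genes had -0.30 and the other mitosis genes 0.01, where the members had 0.32 and -0.35. The contrasts of licensing and mitosis in HDLM-2 and U-HO1 were thus not seen in these genes. In L-1236, 8 of the 9 genes listed with licensing were at least 1 below the mean, with a median of -1.28 and of -0.63 level-corrected. The widest ranges were those of MYBL1, E2F7, SPC25 and PRIM2, at 5.56, 3.97, 3.83 and 3.48. MYBL1, a relative of MYBL2, was at 8.29 in HDLM-2, 5.56 in KM-H2, 3.82 in L-1236, 9.38 in L-428, 4.97 in L-540, 6.69 in SUP-HD1 and 6.36 in U-HO1. L-1236 was below its background, and HDLM-2 and L-428 were the high lines.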

How the data were processed

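RNA from 7 HL cell lines was read on 1 array each. Per the methods, the authors applied RMA background correction to the scanned intensities, then normalized by quantiles and deposited log2 values. RMA, affy and limma are the tools in the submitters' notes, and for none of them is a version given in the sources used here. The methods speak of ratios to the sample mean, but the deposited values run from 1.99 to 14.17 and are levels. Depth has no meaning here, and the number of arrays and signal over background limit precision. The methods name 2 laboratories without assigning lines, so laboratory and line cannot be told apart.

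Of 54675 probe sets, 41097 had 1 gene symbol, 1801 several and 11777 none, and symbols of 41043 were updated by gene identifier from the RefSeq table of GRCh38. Genes were read from the probe set of highest mean. Background per array was set by 107 probe sets of olfactory receptors, at their 95th percentile. The level correction subtracted, per array, a lowess curve (fraction 0.3) of the difference from the mean of the lines against that mean. The curve was fitted over all 19775 genes measured, whatever their level, and the correction was tested on simulated data. Differences of 1 and ranges of 2 were counted over 14495 genes. Values are given in all lines for the 5 members of widest range per group and for CDK1, CCNB1, PCNA, MCM2, E2F1, FOXM1, TOP2A and MKI67, and as lowest, median and highest line for the rest.

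The members and lists were chosen with earlier results of these data known. Alternatives took other probe sets, normalizations, references, backgrounds and folds, or left out lines. Python 3.11.15, numpy 2.4.6, pandas 2.3.3, statsmodels 0.14.6 and matplotlib 3.10.9 were used.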

Additional observations from a re-analysis of the deposited data

Results flagged for a closer look

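A line was held to stand apart where its gap to the next line was large against the range over the 7 lines, by Dixon's criterion. This held for 8 of 51 members and for 1 of 5 group medians. The nominal rate of the criterion is about 1 in 20, but the share of all genes that pass it was not computed. The count is thus not set against all genes, and the L-1236 array read low over all genes at high levels. L-1236 stood low for RFC3 at 5.76 (next line L-540 at 7.99), RFC4 at 8.07 (U-HO1 at 9.26), POLE2 at 6.08 (U-HO1 at 7.95), RRM1 at 8.47 (L-540 at 9.80) and E2F8 at 3.97 (KM-H2 at 6.31), the last below background. At a second RFC3 probe set L-1236 was lowest at 6.62, but U-HO1 was next at 7.19. At the other RRM1 probe set L-1236, at 8.06, was not the lowest line, since U-HO1 was at 6.86. The median of the S phase genes stood low in L-1236, at -0.86 against -0.06 in HDLM-2. HDLM-2 stood low for GMNN at 8.44 (SUP-HD1 at 9.47) and for MYBL2 at 6.64 (KM-H2 at 7.56). U-HO1 stood high for E2F2 at 8.26 (L-1236 at 6.51).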

How the results depend on the processing

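No paired analysis was possible because 1 array was made of every line. Group medians kept their sign in 478 of 515 recomputed values and the mitosis minus licensing difference in 91 of 103, and in HDLM-2 and U-HO1 that difference kept its sign under every alternative run. Of 5176 values of single members, 163 moved by more than the spread between probe sets and 5 reversed: MKI67 in U-HO1 to 0.84 with the probe set of largest variance, and, without probe sets named _x_at or _s_at, GINS2 in HDLM-2 to 0.32 and in U-HO1 to -0.50, RRM2 in U-HO1 to 0.44 and AURKA in U-HO1 to 0.10. That AURKA value came from a probe set above background in none of the lines. Leaving out probe sets named _x_at or _s_at left 11 members without a value and moved the regulator medians to 0.78 in L-540 and 1.07 in U-HO1. The level correction moved the median of all members in L-1236 to -0.11. The cause was not tested.

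Counts of members at least 1 from the mean moved as follows. With the probe set of largest variance, KM-H2 had 2 above, L-1236 1 above and 23 below, L-540 4 below, and 5 licensing genes had a range of at least 2. With the mean of probe sets, HDLM-2 had 5 below, KM-H2 0 below, L-1236 1 above, U-HO1 3 above and 2 below, and 1 regulator had that range. Without _x_at and _s_at probe sets, HDLM-2 had 3 below, KM-H2 2 above and 0 below, L-428 0 below, L-540 2 above, SUP-HD1 0 below and U-HO1 1 below. With array medians subtracted, KM-H2 had 2 above. With quantile normalization again, KM-H2 had 2 below, L-1236 1 above and 8 below, L-540 3 above and SUP-HD1 3 above. With the level correction, L-1236 had 8 below, L-540 2 above and SUP-HD1 3 above. With values raised to background, L-540 had 3 above. With the median of the lines as reference, KM-H2 had 2 above and 4 below and SUP-HD1 3 above. At a log2 difference of 1.5, HDLM-2 had 1 above and 0 below, KM-H2 0 above and 0 below, L-1236 8 below, L-428 2 above and 0 below, L-540 1 above and 0 below, SUP-HD1 2 above, and U-HO1 1 above and 1 below. Without L-1236 and U-HO1 together, KM-H2 had 4 below, L-428 4 above, L-540 1 above and SUP-HD1 3 above, and a range of at least 2 was read for 12 members, with 5 in S phase, 4 in mitosis and 0 among regulators.

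With each line left out in turn, the counts above ran from 1 to 4 in HDLM-2, 0 to 2 in KM-H2, 0 to 1 in L-1236, 2 to 7 in L-540 and 3 to 6 in SUP-HD1. The counts below ran from 5 to 8 in HDLM-2, 1 to 3 in KM-H2, 0 to 2 in L-428, 2 to 4 in L-540 and 1 to 2 in SUP-HD1. Members with a range of at least 2 ran from 6 to 10 in S phase and 1 to 2 among regulators. Counts of members above background stayed within 1.5 times at the 90th and 99th percentiles.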
